A study of Mus musculus with 27 samples.

Results

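C3, C4b, C2, Cfb, Cfp, Serping1, C3ar1, C5ar1 and Saa3 were followed across mouse ovaries as 8 genes of the complement system and 1 acute phase gene. They were the rows of the count table whose Ensembl identifiers carry these symbols in GENCODE M21, 9 of 51789 gene IDs, and the C1q genes were left out. All 9 had counts in every group and passed the filter on low counts in every comparison. Experiment 1 held ovaries of 4 aged mice treated with TRi-1, a small molecule that blocks the selenoprotein thioredoxin reductase 1, of 4 untreated aged mice and of 5 untreated young mice. Experiment 2 held ovaries of 4 aged mice given auranofin, a gold drug that inhibits thioredoxin reductases, of 5 untreated aged mice and of 5 untreated young mice. Strain, genotype, ages, doses and times of treatment are not given in the sources used here, nor whether the untreated mice, which the labels call controls, received a vehicle. Each library is labelled as a numbered replicate mouse, so p-values measure the spread between these libraries. The series title names TXNRD1 in senescent cells and age-associated inflammation as its subject. Library totals ran from 6460903 to 14814381 counts.

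Complement is a cascade of plasma and tissue proteins that marks cells and microbes for clearance and recruits leukocytes. The classical and lectin routes cut C4 and C2 to build an enzyme that cleaves C3. The alternative route builds a like enzyme from C3 itself and factor B (Cfb), held together by properdin (Cfp). Serping1 encodes C1 inhibitor, a serpin that blocks the proteases that start the classical and lectin routes. The small fragments C3a and C5a act through the receptors C3ar1 and C5ar1, which are found mainly on myeloid cells. Saa3 is a serum amyloid A protein that mice make mostly outside the liver, in macrophages, fat and epithelia, during inflammation. The liver is the main source of plasma C3, factor B and C1 inhibitor, but stromal cells, epithelia and macrophages also make complement proteins.

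All 9 genes lie on the minus strand of GRCm38, and levels below are counts per gene from 3′ tag libraries, which do not cover the whole transcript. C3 (ENSMUSG00000024164) spans positions 57203970 to 57228136 of chromosome 17. C4b (ENSMUSG00000073418, 34728380 to 34743882), Cfb (ENSMUSG00000090231, 34856374 to 34862518) and C2 (ENSMUSG00000024371, 34862604 to 34898265) lie near each other in the major histocompatibility region of the same chromosome. Saa3 (ENSMUSG00000040026) spans 46711998 to 46715700 of chromosome 7, and C5ar1 (ENSMUSG00000049130) spans 16246743 to 16259540 of that chromosome. Cfp (ENSMUSG00000001128) lies on the X chromosome at 20925454 to 20931555, Serping1 (ENSMUSG00000023224) on chromosome 2 at 84765387 to 84775444, and C3ar1 (ENSMUSG00000040552) on chromosome 6 at 122847138 to 122856161. Zbtb12, on the other strand within C2, had 4063 counts in all against 20328 for C2. The annotated 3′ end of C2, at 34862604, lies outside Zbtb12 (34879483 to 34896867), while that of Zbtb12 lies within C2. The strand of counting is not given, so how overlapping reads were assigned is uncertain. The read-through gene Gm20547, which overlaps C2 and Cfb, had 0 counts. C4a, a near-identical copy of C4b, had 0 to 4.40 CPM (counts scaled to the normalised size of each library), and how reads of the pair were divided is uncertain.

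Upstream sequence is shown for C3 and Saa3, the members with the lowest adjusted p under TRi-1. Promoters of 5 of the 9 members were matched by symbol in a RefSeq table for GRCm38.p6 (C3, Cfp, C3ar1, C5ar1 and Saa3), each covering 250 bases before the annotated start and 50 after it. The 250 bases before the start are chr17:57228137-57228386 for C3 and chr7:46715677-46715926 for Saa3, both printed 5′ to 3′ on the minus strand, and capitals mark matches to the motifs named next.
C3: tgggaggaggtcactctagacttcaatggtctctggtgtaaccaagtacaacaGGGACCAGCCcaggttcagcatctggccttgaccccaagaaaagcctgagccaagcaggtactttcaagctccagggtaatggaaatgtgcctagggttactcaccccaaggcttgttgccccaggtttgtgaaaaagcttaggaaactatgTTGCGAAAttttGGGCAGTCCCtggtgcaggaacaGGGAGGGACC
Saa3: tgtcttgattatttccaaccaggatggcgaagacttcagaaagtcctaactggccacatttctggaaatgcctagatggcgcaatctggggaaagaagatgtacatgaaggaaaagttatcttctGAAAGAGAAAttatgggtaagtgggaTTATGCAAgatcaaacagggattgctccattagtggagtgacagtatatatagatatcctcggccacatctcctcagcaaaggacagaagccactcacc
Both strands of the 300-base windows were searched for 4 motifs of inflammatory transcription factors: C/EBP (TTGCNNAA), NF-kB (GGGANNNNCC), STAT (TTCNNNGAA) and IRF (GAAANNGAAA). C3 held 1 C/EBP match, beginning at position -45 from the start, and 3 NF-kB matches, at -197, -33 and -10. Saa3 held 1 C/EBP match at -99 and 1 IRF match at -125. Neither window held a STAT match, none of the 4 motifs was matched in the windows of Cfp, C3ar1 and C5ar1, and the matches shown do not overlap. Of 32851 RefSeq promoters of the same length, 10.8% held the C/EBP motif, 20.7% the NF-kB motif, 8.30% the STAT motif and 3.44% the IRF motif, and a match to these letters is given as a description.

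The first comparison set untreated aged ovaries against untreated young ovaries in each experiment. In both experiments 7 of the 9 genes rose: C3, C4b, Cfb, Cfp, C3ar1, C5ar1 and Saa3, with log2 fold changes from 1.98 to 3.68 in experiment 1 and from 1.84 to 6.18 in experiment 2. C2 and Serping1 did not pass the test in either. A gene was called at an edgeR quasi-likelihood p under 0.05 after Benjamini-Hochberg adjustment over all genes tested. That rule called 34.9% of all genes for age in experiment 1, 18.5% of all genes as higher, and in experiment 2 the shares were 10.5% and 5.86%. The median log2 fold change of the 9 genes was 2.31 in experiment 1, against 0.02 over all genes tested, and 2.18 in experiment 2, against -0.03. In bulk tissue, fewer cells of a type and less RNA per cell cannot be told apart, which holds for every level below.

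**Figure D1:**
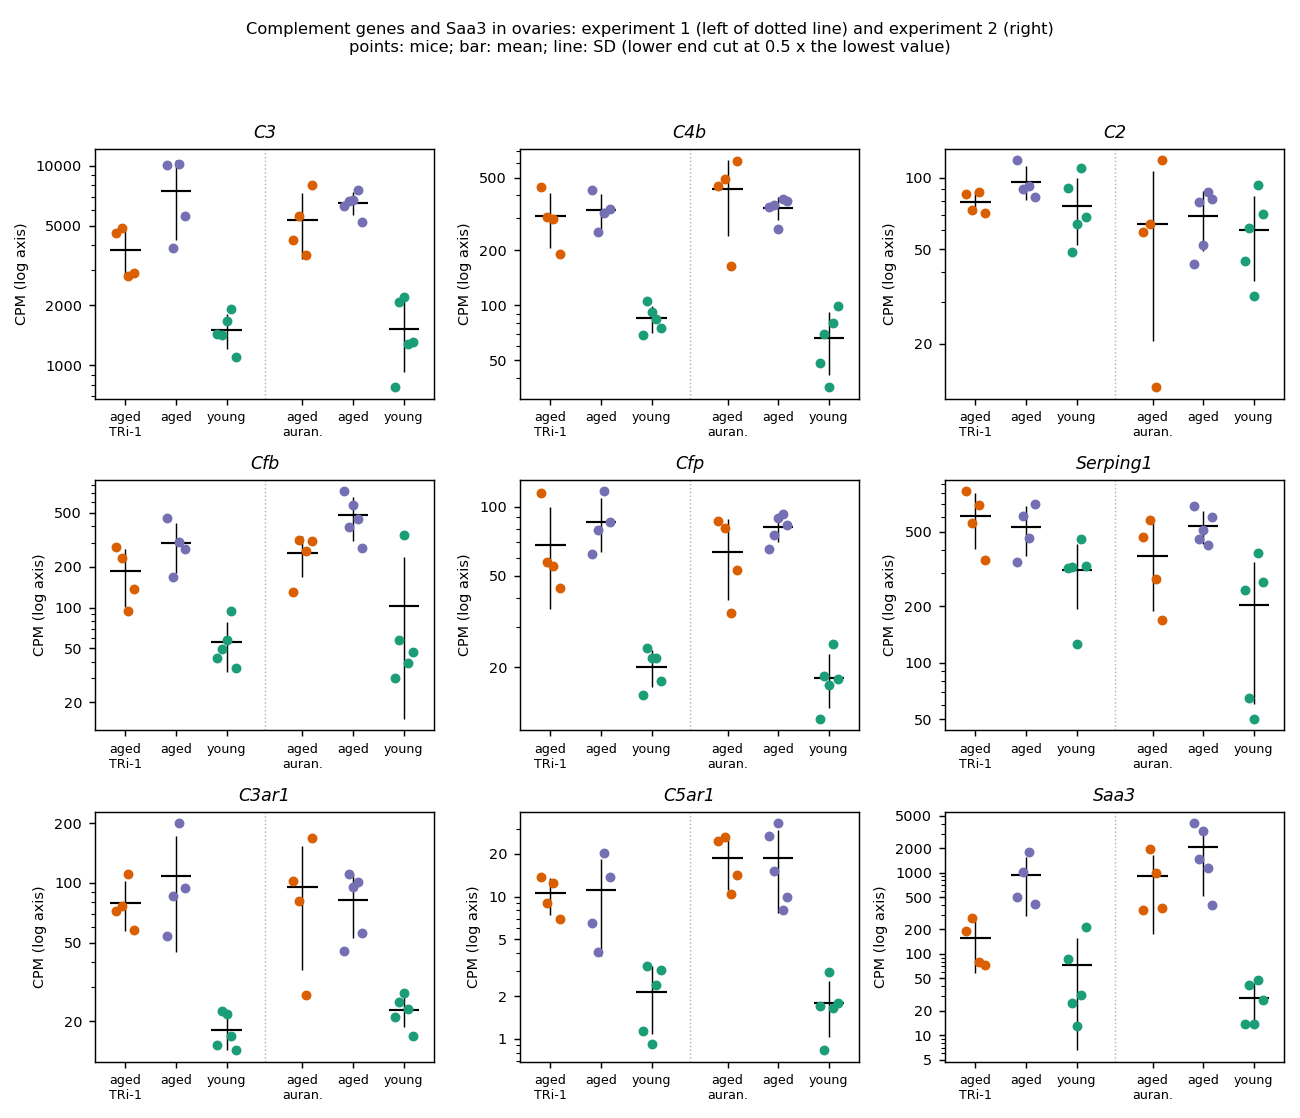
Level of each gene in CPM (log axis) in every mouse, with experiment 1 left and experiment 2 right of the dotted line and treated aged, untreated aged and young groups from left to right in each; points are mice, bars group means and lines SD. The untreated aged points lie above all young points for C3, C4b, Cfp, C3ar1, C5ar1 and Saa3 in both experiments, and the groups of C2 overlap throughout.

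C3, the protein on which all routes converge, was 4.95-fold higher with age in experiment 1 and 4.24-fold higher in experiment 2. In experiment 1 its level was 4586, 4857, 2805 and 2908 CPM in TRi-1-treated aged ovaries, 10117, 3891.5, 10253 and 5579 CPM in untreated aged ovaries, and 1444, 1426, 1677.5, 1914 and 1103 CPM in young ovaries. In experiment 2 it was 4224, 5585, 3579 and 7980.4 CPM in auranofin-treated aged ovaries, 6310.5, 6637, 6764, 7579.8 and 5211 CPM in untreated aged ovaries, and 778, 2077, 2203, 1276 and 1313 CPM in young ovaries. No untreated aged ovary was as low as any young one, and in experiment 1 the untreated aged mice fell into a high and a low pair while those of experiment 2 lay close together. The log2 fold change was 2.31 ± 0.28 in experiment 1 (adjusted p = 1.99e-05) and 2.08 ± 0.30 in experiment 2 (adjusted p = 0.00058), each with its standard error.

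Of the genes of the classical and lectin routes, C4b rose and C2 did not pass. C4b, whose protein binds covalently to target surfaces, was at 445, 306, 296 and 192 CPM in TRi-1-treated, 426, 251, 319 and 338 CPM in untreated aged and 69.2, 106, 92.0, 83.8 and 75.4 CPM in young ovaries of experiment 1. In experiment 2 C4b was at 452, 492, 163 and 619 CPM in auranofin-treated, 343, 354, 261, 381 and 372 CPM in untreated aged and 48.2, 70.2, 35.6, 80.5 and 99.0 CPM in young ovaries. Every aged ovary, treated or not, lay above every young ovary. With age C4b rose by 1.98 ± 0.23 on the log2 scale in experiment 1 (adjusted p = 1.45e-05) and by 2.36 ± 0.34 in experiment 2 (adjusted p = 0.000566). C2, the protease that cuts C3 once bound to C4b, ranged from 83.2 to 119 CPM in untreated aged ovaries and from 48.5 to 109 CPM in young ovaries of experiment 1, and from 43.4 to 87.5 CPM in untreated aged ovaries and from 31.9 to 93.2 CPM in young ovaries of experiment 2. Its groups overlapped, and its changes with age of 0.35 ± 0.21 (adjusted p = 0.212, 95% interval -0.09 to 0.79) and 0.19 ± 0.42 (adjusted p = 0.847, 95% interval -0.70 to 1.09) leave a rise of up to 1.09 on the log2 scale within the interval.

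Both genes of the alternative route rose. Cfb, the protease of that route, was at 280.2, 230.3, 94.6 and 137 CPM in TRi-1-treated, 455, 167, 306 and 271 CPM in untreated aged and 42.8, 49.4, 57.5, 93.6 and 36.0 CPM in young ovaries of experiment 1. In experiment 2 Cfb was at 129, 312, 263 and 307 CPM in auranofin-treated, 716, 389.8, 573, 448 and 273 CPM in untreated aged and 30.3, 57.8, 342, 39.3 and 47.0 CPM in young ovaries. Young replicate 3 of experiment 2 thus lay within the range of the untreated aged ovaries, while the other 4 young ovaries lay far below it. Cfb rose by 2.43 ± 0.35 in experiment 1 (adjusted p = 8.46e-05) and by 2.22 ± 0.60 in experiment 2 (adjusted p = 0.0258). In experiment 2 the change was 3.46 without young replicate 3 (adjusted p = 0.000149). It no longer passed when young replicate 1, 2, 4 or 5 or aged replicate 1 or 3 was left out (adjusted p from 0.0526 to 0.0698, changes from 1.98 to 2.15). That young library also stood apart in other genes: its mean correlation with its group was 0.795, its summed neutrophil markers were 418 CPM against 43.3 to 79.0 CPM in the other 4, and its summed granulosa cell markers, 78.8 CPM, were the lowest of the young ovaries of experiment 2.

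Cfp, properdin, had 115, 57.2, 55.0 and 44.2 CPM in TRi-1-treated, 62.5, 79.4, 116 and 85.9 CPM in untreated aged and 15.2, 24.2, 21.9, 22.0 and 17.4 CPM in young ovaries of experiment 1. In experiment 2 Cfp had 86.9, 80.7, 34.3 and 52.8 CPM in auranofin-treated, 65.6, 75.1, 89.1, 93.2 and 83.4 CPM in untreated aged and 11.9, 18.3, 16.7, 25.2 and 17.9 CPM in young ovaries. The young groups lay in the same narrow range in both experiments, below all aged ovaries. Its rises of 2.11 ± 0.27 (adjusted p = 3.06e-05) and 2.18 ± 0.26 (adjusted p = 0.000184) were the closest to each other of the 7 genes called.

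Serping1 had higher means in untreated aged than in young ovaries in both experiments and did not pass the test. In experiment 1 it was at 345, 602, 464 and 703 CPM in untreated aged ovaries and 321, 323, 125, 457 and 329 CPM in young ovaries. In experiment 2 it was at 686, 454, 507, 426 and 597 CPM in untreated aged ovaries and 246, 65.2, 50.4, 386 and 268 CPM in young ovaries. The groups overlapped in experiment 1 and did not in experiment 2, where young replicates 2 and 3 were far below the other 3. The changes were 0.79 ± 0.31 (adjusted p = 0.059) and 1.41 ± 0.48 (adjusted p = 0.0774). Other tools put this gene on the other side of the threshold: DESeq2 gave an adjusted p of 0.0425 in experiment 1 and 0.0246 in experiment 2, and limma-voom gave 0.0354 and 0.0288. Without young replicate 4 or aged replicate 1 of experiment 1 the adjusted p was 0.0335 and 0.0319, and without young replicate 4 of experiment 2 it was 0.0386.

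Both anaphylatoxin receptors rose. C3ar1, the C3a receptor, was at 72.4, 76.8, 111 and 57.9 CPM in TRi-1-treated, 53.7, 85.9, 201 and 93.9 CPM in untreated aged and 15.3, 22.5, 21.9, 17.0 and 14.3 CPM in young ovaries of experiment 1. In experiment 2 C3ar1 was at 102, 81.3, 27.3 and 169 CPM in auranofin-treated, 45.6, 111, 94.97, 101 and 55.8 CPM in untreated aged and 21.1, 25.0, 27.7, 23.1 and 16.9 CPM in young ovaries. Untreated aged and young ovaries did not overlap, and only auranofin replicate 3 reached down to the young range. C3ar1 rose by 2.59 ± 0.32 (adjusted p = 2.19e-05) in experiment 1 and by 1.84 ± 0.38 (adjusted p = 0.00562) in experiment 2.

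C5ar1, the C5a receptor of neutrophils and macrophages, rested on few reads, with 77 counts over the 5 young libraries of experiment 1 and 87 over those of experiment 2. Its level was 13.6, 9.03, 12.5 and 6.95 CPM in TRi-1-treated, 6.53, 4.08, 20.2 and 13.7 CPM in untreated aged and 1.13, 3.26, 0.927, 2.39 and 3.06 CPM in young ovaries of experiment 1. In experiment 2 C5ar1 was at 24.4, 26.2, 10.4 and 14.1 CPM in auranofin-treated, 26.6, 15.1, 32.9, 8.03 and 10.01 CPM in untreated aged and 1.70, 0.832, 2.97, 1.65 and 1.79 CPM in young ovaries. All aged ovaries were above all young ones, with a spread of up to 4.95-fold within an aged group. The rise was 2.38 ± 0.47 (adjusted p = 0.00111) in experiment 1 and 3.37 ± 0.46 (adjusted p = 0.000449) in experiment 2.

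Saa3 had the highest fold change of the 9 with age, 12.8-fold in experiment 1 and 72.4-fold in experiment 2. In experiment 1 Saa3 was at 189, 278, 80.1 and 73.0 CPM in TRi-1-treated aged ovaries, 496, 1018, 1797 and 408 CPM in untreated aged ovaries and 86.4, 25.0, 12.98, 31.4 and 211 CPM in young ovaries. In experiment 2 it was at 347.5, 1939.8, 982 and 363 CPM in auranofin-treated aged ovaries, 4074, 1448, 3258.5, 1123 and 402 CPM in untreated aged ovaries and 13.6, 40.8, 13.7, 47.9 and 26.8 CPM in young ovaries. Untreated aged and young ovaries did not overlap in either experiment, although levels differed 10.1-fold among the untreated aged mice of experiment 2 and 16.2-fold among the young mice of experiment 1. The log2 fold change was 3.68 ± 0.71 in experiment 1 (adjusted p = 0.000915) and 6.18 ± 0.75 in experiment 2 (adjusted p = 0.000184). Without young replicate 5 of experiment 1, the highest young ovary, the change there was 4.58 (adjusted p = 0.000178). Saa1, a serum amyloid A gene of the liver, had no more than 14.4 CPM in any library. Saa2, another such gene, fell in experiment 2 by 4.84 ± 1.30 on the log2 scale (adjusted p = 0.026), with 0 to 0.510 CPM in untreated aged and 0.114 to 18.3 CPM in young ovaries.

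Untreated aged and young groups did not overlap for 7 of the 9 genes in experiment 1, where 27.5% of all genes tested did not overlap in either direction, and for 7 of the 9 in experiment 2, where 11.2% did not. All of these members were higher in aged ovaries. C2 was absent from both counts, Serping1 from that of experiment 1 and Cfb from that of experiment 2. When the 6 groups were ordered by their mean, the young groups were the lowest for every gene except C2, and in C3, C4b, Cfp, C3ar1 and C5ar1 the step from the young to the aged groups was the only neighbouring pair that did not overlap. For Saa3 that step lay one place higher: the young groups overlapped with each other, and that of experiment 1 with the TRi-1-treated aged group, which did not overlap with the auranofin-treated aged group above it.

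Whether the age change differed between experiments was tested in 1 fit of all 27 libraries. With edgeR 0 of the 9 genes passed, 1 of 9 had an unadjusted p under 0.05, and DESeq2 and limma-voom each called 0 of the 9. The edgeR fit called 0 of all 17484 genes tested, 2067 of which had an unadjusted p under 0.05. The widest difference was that of Saa3, 2.51 ± 1.00 higher on the log2 scale in experiment 2 (adjusted p = 0.298, 95% interval 0.47 to 4.55), and it was 1.64 without young replicate 5 of experiment 1 (adjusted p = 0.554), 3.07 without untreated aged replicate 3 of experiment 1 (adjusted p = 0.292) and 1.31 with replicate number as a block (adjusted p = 0.774). Those of the other 8 genes lay between -0.73 and 0.99. That of Cfb, -0.21, was 1.04 without young replicate 3 of experiment 2 (adjusted p = 0.442), and that of C5ar1, 0.99, was 1.5 without untreated aged replicate 3 of experiment 1 (adjusted p = 0.414).

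Markers of leukocytes rose beside these genes. Of 12 macrophage markers 10 rose and 0 fell in experiment 1, and their summed level was 3121 to 8497 CPM in untreated aged and 664 to 1038 CPM in young ovaries. In experiment 2, 9 of the 12 rose and 0 fell, with 3152 to 6798 CPM in untreated aged and 538 to 1246 CPM in young ovaries. Lyz2, lysozyme M of macrophages and granulocytes, rose by 3.11 ± 0.33 in experiment 1 and by 2.93 ± 0.51 in experiment 2. Of the neutrophil markers tested, 6 of 8 rose in experiment 1 and 7 of 11 in experiment 2, and their summed levels were 758 to 2111 CPM in untreated aged and 51.2 to 174 CPM in young ovaries of experiment 1, and 415 to 4109 CPM in untreated aged and 43.3 to 418 CPM in young ovaries of experiment 2. All 10 B and T cell markers tested rose in experiment 1 and 9 of 10 in experiment 2. The part of these cells in the changes of the 9 genes was not tested.

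Markers of other cell types that make complement proteins were summed in the same way. Of 14 hepatocyte markers 0 passed in experiment 1 with edgeR (1 higher at an unadjusted p under 0.05). The value was below 0 for 2 of the 14, with a median of 1.17. Their summed level was 22.2 to 2682 CPM in untreated aged and 224 to 698 CPM in young ovaries. Untreated aged replicate 3, the library at 2682 CPM, also had the highest C3, Cfp, C3ar1, C5ar1 and Saa3 of its group. Without the library highest in hepatocyte markers of each group of experiment 1, 7 of the 9 genes were still called, and Saa3 changed by 4.00, C3ar1 by 2.00 and C3 by 1.97. In experiment 2 hepatocyte markers summed to 13.8 to 48.6 CPM in untreated aged and 6.17 to 59.4 CPM in young ovaries, 1 of the 7 tested rising and 1 falling. Of 10 fibroblast markers 1 rose and 2 fell in experiment 1, and with edgeR 0 passed in experiment 2 (2 lower at an unadjusted p under 0.05). With edgeR 0 of 8 adipocyte markers passed in either experiment (0 at an unadjusted p under 0.05), with medians of 0.55 and 0.44. Of 8 mesothelium and surface epithelium markers 2 rose and 1 fell in experiment 1. In experiment 2, 0 passed (2 higher at an unadjusted p under 0.05). For oviduct and uterus epithelium 0 of 7 passed in either. At an unadjusted p under 0.05, 2 were higher in experiment 1 and 1 lower in experiment 2. Granulosa cell markers, which define the follicles of the ovary, were lower: 4 of 6 tested fell in experiment 1 and 1 of 6 in experiment 2. Amh and Fshr had 0 counts in both untreated aged groups, but Amh also had 0 counts in the young ovaries of experiment 2.

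**Figure D2:**
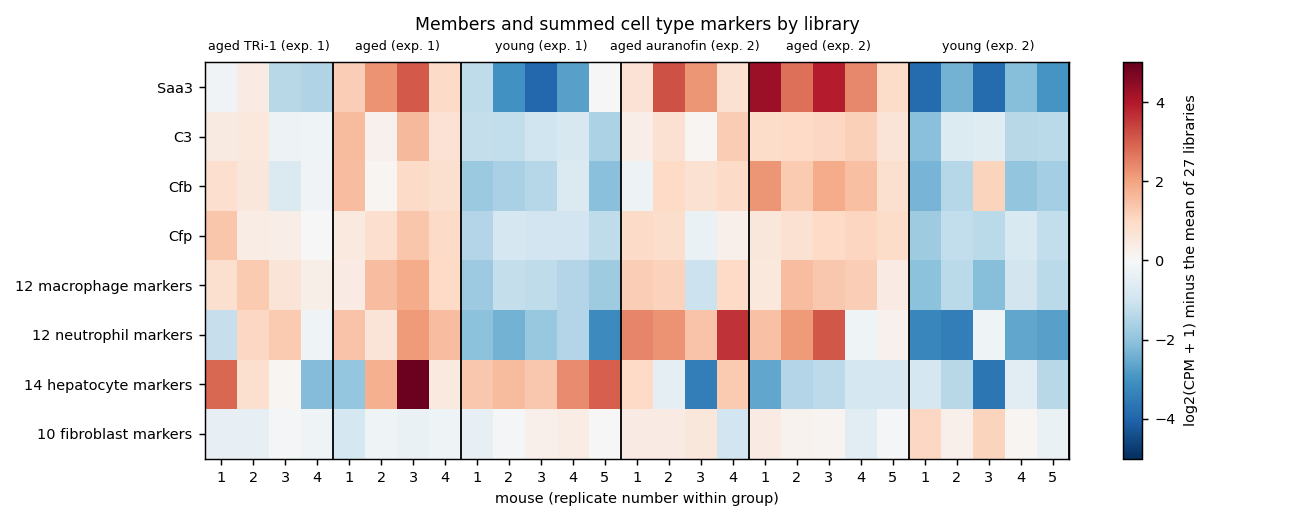
Heat map of Saa3, C3, Cfb, Cfp and the summed markers of 4 cell types in each of the 27 libraries (columns, by group and replicate), as log2 of CPM plus 1 minus the mean over all libraries (colour scale, red above and blue below). Saa3 is above its mean in all untreated aged libraries of both experiments, Cfb is high in young replicate 3 of experiment 2, and the hepatocyte markers peak in untreated aged replicate 3 of experiment 1.

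The second comparison asked whether a thioredoxin reductase inhibitor changed these genes in aged ovaries, and it shares the untreated aged ovaries with the age comparison. Under TRi-1 edgeR called 0 of the 9, against 0.418% of all genes tested, and 2 of the 9, C3 and Saa3, had an unadjusted p under 0.05, as did 2650 of the 16028 genes tested. Values were lower than in untreated aged ovaries for 8 of the 9, the exception being Serping1. The median log2 change of the 9 was -0.37, against -0.00 over all genes. Without untreated aged replicate 3 the value was 0.04 for C3ar1 and 0.39 for C5ar1. That of C4b reached 0.08 with single libraries left out. Serping1 was at -0.03 without the 3 libraries highest in hepatocyte markers. The values of C3, Saa3, Cfb, Cfp and C2 stayed below 0 in all settings. Saa3 averaged 155 ± 97.5 CPM in TRi-1-treated ovaries and 929.7 ± 638 CPM in untreated aged ovaries (SD, n = 4 each), and it was the only member whose groups did not overlap, where 9.07% of all genes tested did not overlap in either direction. Its fitted change was -2.60 ± 0.74 (adjusted p = 0.105, 95% interval -4.17 to -1.03). C3 averaged 3789 ± 1083 CPM in TRi-1-treated ovaries and 7460.1 ± 3221 CPM in untreated aged ovaries (SD, n = 4 each), a change of -0.99 ± 0.29 (adjusted p = 0.113, 95% interval -1.60 to -0.38). Untreated aged replicate 2, at 3891.5 CPM, lay inside the range of the treated ovaries, and without it the change of C3 was -1.20 (adjusted p = 0.0458).

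These results depended on the tool. DESeq2 called both genes, Saa3 with an adjusted p of 0.0483 and C3 with 0.0296, limma-voom called neither, and edgeR with no filter on low counts called Saa3 (adjusted p = 0.036). Over all alternatives the change of Saa3 stayed between -3.03 and -2.04, its smallest size being that without untreated aged replicate 3 (adjusted p = 0.239). The other 7 genes had adjusted p of at least 0.342 and changes between -0.71 for Cfb (95% interval -1.47 to 0.06) and 0.16 for Serping1 (95% interval -0.53 to 0.86). C4b, for one, averaged 309.7 ± 104 CPM in TRi-1-treated and 333 ± 72.0 CPM in untreated aged ovaries, a change of -0.13 ± 0.24 (95% interval -0.63 to 0.37). Summed macrophage markers were 2926 to 5872 CPM in TRi-1-treated and 3121 to 8497 CPM in untreated aged ovaries, and summed neutrophil markers were 213 to 1202 CPM in TRi-1-treated and 758 to 2111 CPM in untreated aged ovaries. With edgeR 0 of the 12 macrophage markers passed (1 higher and 0 lower at an unadjusted p under 0.05). Of the 8 neutrophil markers 0 passed (0 at an unadjusted p under 0.05). The part of both cell types in the lower Saa3 and C3 values was not tested. Hepatocyte markers summed to 18.8 to 656 CPM in TRi-1-treated and 22.2 to 2682 CPM in untreated aged ovaries, and 0 of 14 passed with edgeR (2 lower at an unadjusted p under 0.05), the value being below 0 for all 14 with a median of -1.87. Without the 3 libraries highest in them in their groups the values were -2.14 for Saa3 and -0.85 for C3 (adjusted p = 0.277 and 0.355). Of 10 fibroblast markers 0 rose and 2 fell under TRi-1, Pi16 by 2.30 ± 0.37 (adjusted p = 0.0258) and Mfap5 by 1.36 ± 0.27 (adjusted p = 0.0421), with a median of -0.31 over the list. Of 6 granulosa cell markers 0 passed with edgeR (5 higher at an unadjusted p under 0.05, median 2.12). Their summed level was 200, 276, 137 and 1428 CPM in TRi-1-treated and 102 to 175 CPM in untreated aged ovaries. The highest value was thus that of 1 library, TRi-1 replicate 4. Of 8 adipocyte markers 0 passed with edgeR (0 at an unadjusted p under 0.05, median -0.72), and all 8 values were below 0. Of 8 mesothelium and surface epithelium markers 0 passed (1 lower at an unadjusted p under 0.05, median -0.27). For oviduct and uterus epithelium 0 of 7 passed (0 at an unadjusted p under 0.05, median -0.15). For B and T cells 0 of 10 passed (0 at an unadjusted p under 0.05, median 0.05). The part of these cells in the Saa3 and C3 values was not tested either.

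Under auranofin edgeR called 0 of the 9, against 0.0184% of all genes tested, 0 of the 9 had an unadjusted p under 0.05, while 1148 of the 16309 genes tested did, and DESeq2 and limma-voom called 0. Treated and untreated aged ovaries overlapped for all 9 genes, where 3.53% of all genes tested did not overlap, 6 had lower and 3 higher values, and the median change was -0.30, against 0.02 over all genes. Saa3 averaged 908 ± 749 CPM in auranofin-treated ovaries (n = 4) and 2061 ± 1540.5 CPM in untreated aged ovaries (SD, n = 5), a change of -1.19 ± 0.65 (adjusted p = 0.767, 95% interval -2.58 to 0.20). Cfb averaged 253 ± 85.3 CPM in auranofin-treated and 479.9 ± 170.45 CPM in untreated aged ovaries, a change of -0.94 ± 0.62 (adjusted p = 0.815, 95% interval -2.25 to 0.37). The fitted value was -0.30 ± 0.30 for C3 (95% interval -0.94 to 0.35), 0.32 ± 0.34 for C4b (95% interval -0.40 to 1.04) and 0.01 ± 0.43 for C5ar1 (95% interval -0.91 to 0.93). Summed neutrophil markers were 1282 to 5812 CPM in auranofin-treated and 415 to 4109 CPM in untreated aged ovaries, and summed macrophage markers were 1130 to 5513 CPM in auranofin-treated and 3152 to 6798 CPM in untreated aged ovaries. Summed adipocyte markers were 376 to 11056 CPM in auranofin-treated and 354 to 2871 CPM in untreated aged ovaries. With edgeR 0 of the 8 passed (0 at an unadjusted p under 0.05, median 1.06). Of 8 mesothelium and surface epithelium markers 0 passed (2 lower at an unadjusted p under 0.05, median -0.38), with all 8 values below 0. For oviduct and uterus epithelium 0 of 7 passed (median -0.06). For B and T cells 0 of 10 passed (3 lower at an unadjusted p under 0.05, median -0.94), with all 10 values below 0. Their sum was 80.0 to 740 CPM in auranofin-treated and 437 to 904 CPM in untreated aged ovaries. Of 7 hepatocyte markers 0 passed (1 higher at an unadjusted p under 0.05, median -0.66). Of 10 fibroblast and 6 granulosa cell markers 0 passed (0 at an unadjusted p under 0.05, medians 0.20 and -0.13). The part of these cells was not tested. Auranofin replicates 3 and 4 stood apart from their group (mean correlations 0.838 and 0.804), and replicate 3 had the lowest C4b, C2, Cfp and C3ar1 of the 27 libraries' aged groups as well as the lowest macrophage markers. A fit without these libraries and young replicate 3 had auranofin replicates 1 and 2 as its only treated ovaries. As in the full fit, 0 of the 9 genes were called, a count that so few treated ovaries could hardly raise. The value of Saa3 in that fit was -0.86. It was -1.86 without auranofin replicate 2 (adjusted p = 0.475) and -0.77 without untreated aged replicate 1 (adjusted p = 0.933).

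**Figure D3:**
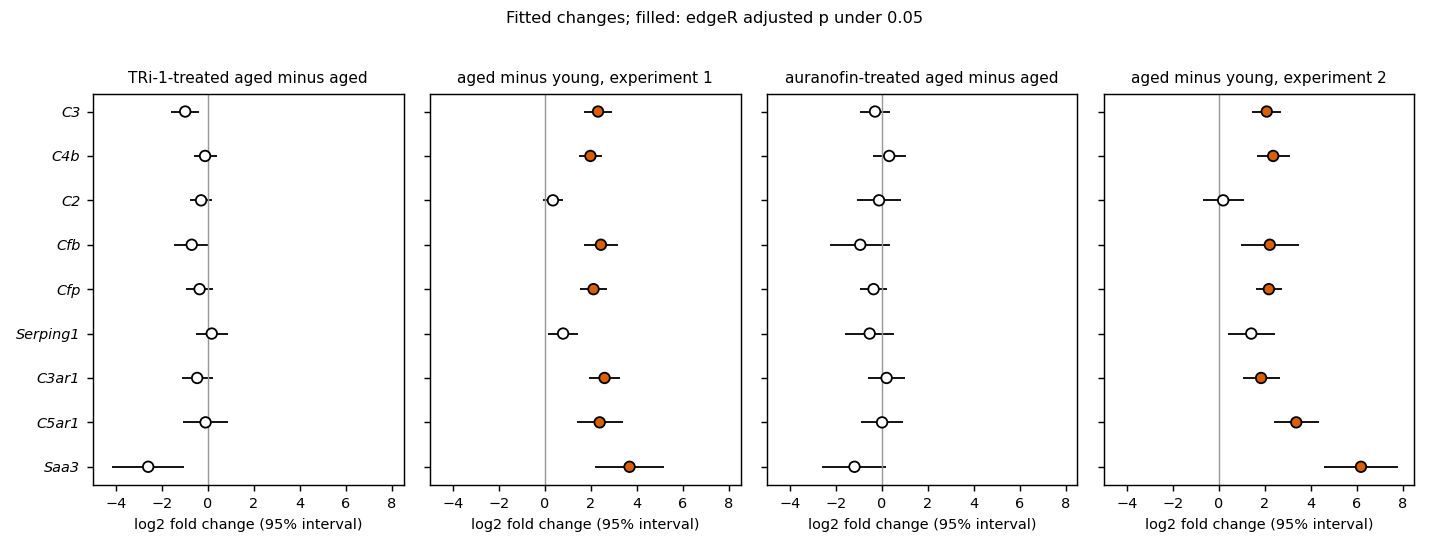
Fitted log2 fold change of each gene with its 95% interval for TRi-1-treated minus untreated aged, aged minus young in experiment 1, auranofin-treated minus untreated aged, and aged minus young in experiment 2; filled points had an edgeR adjusted p under 0.05. In the age panels 7 of 9 points are filled, and in the treatment panels none is, Saa3 and C3 under TRi-1 being the only genes there with an interval that leaves out 0.

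The 2 inhibitors share a target but were used in different experiments, so drug and experiment cannot be told apart, and doses are not given. In the fit of all libraries the auranofin change minus the TRi-1 change passed for 0 of the 9 genes with edgeR (0 with an unadjusted p under 0.05, 0 with DESeq2 and 0 with limma-voom), against 0.0172% of all genes. It was 1.40 ± 1.02 for Saa3 (adjusted p = 0.651, 95% interval -0.70 to 3.51) and 0.69 ± 0.44 for C3 (adjusted p = 0.587, 95% interval -0.20 to 1.59). With single libraries left out the value of Saa3 ran from 0.71 without auranofin replicate 2 to 1.85 without TRi-1 replicate 2. These intervals leave room for a difference of more than 1 on the log2 scale in either gene.

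Treated aged ovaries were also set against the young ovaries of their experiment, which are the same controls as in the age comparison. In TRi-1-treated ovaries 7 of the 9 genes were higher than in young ovaries, against 10.9% of all genes, and in auranofin-treated ovaries 6 were, against 5.42%. C3, C4b, Cfp, C3ar1 and C5ar1 were called in both. C3 was 1.32 ± 0.27 higher on the log2 scale in TRi-1-treated than in young ovaries (adjusted p = 0.00268) and 1.79 ± 0.31 higher in auranofin-treated than in young ovaries (adjusted p = 0.00207). C4b was 1.85 ± 0.23 and 2.68 ± 0.35 higher in the same comparisons (adjusted p = 4.21e-05 and 0.000375).

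Saa3, Cfb and Serping1 were called against young ovaries in only 1 of the treated groups, and the treated groups, which belong to different experiments, were not tested directly against each other. In TRi-1-treated ovaries Saa3 averaged 155 ± 97.5 CPM (n = 4) and in young ovaries 73.3 ± 81.9 CPM (n = 5), a change of 1.08 ± 0.67 (adjusted p = 0.278, 95% interval -0.33 to 2.49) with overlapping groups. Without young replicate 5 the change was 1.98 (adjusted p = 0.0314), and without TRi-1 replicate 2 it was 0.61 (adjusted p = 0.623). In auranofin-treated ovaries Saa3 was 4.99 ± 0.72 above young ovaries (adjusted p = 0.000724), or 4.29 without auranofin replicate 2. Cfb was 1.73 ± 0.34 above young ovaries under TRi-1 (adjusted p = 0.00207) and 1.28 ± 0.60 under auranofin (adjusted p = 0.212), and without young replicate 3 of experiment 2 the value under auranofin was 2.52 (adjusted p = 0.000643). Serping1 was at 817, 556, 689 and 353 CPM in TRi-1-treated ovaries, 0.95 ± 0.31 above young ovaries (adjusted p = 0.0391). That call was lost when any young library but replicate 4, or TRi-1 replicate 1, 2 or 3, was left out (adjusted p from 0.0575 to 0.142), and with replicate number as a block (adjusted p = 0.0802). In auranofin-treated ovaries Serping1 was at 469, 574, 278 and 169 CPM, 0.88 ± 0.50 above young ovaries (adjusted p = 0.307).

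The rest of the complement system was described with a list of 43 further genes, and the acute phase response with 30 further genes including the IL-6 family signalling chain. Of 32 complement genes tested for age in experiment 1, 13 rose, 0 fell and 19 did not pass (median 0.94), and of 28 tested in experiment 2, 6 rose, 0 fell and 22 did not pass (median 0.64). The receptor chains Itgax and Itgb2, which form complement receptor 4 on myeloid cells, rose in experiment 1 by 4.68 ± 0.43 and 3.46 ± 0.42 and in experiment 2 by 3.77 ± 0.54 and 4.15 ± 0.55. C1ra, a protease of the C1 complex and a target of C1 inhibitor, rose by 1.29 ± 0.21 in experiment 1 and by 1.41 ± 0.31 in experiment 2. Also among the 5 lowest p in experiment 1 were Cd93, a receptor of endothelial and myeloid cells, at 1.89 ± 0.22 and Itgam, the partner of Itgb2 in complement receptor 3, at 2.43 ± 0.41. In experiment 2 they were the second C5a receptor C5ar2 at 2.41 ± 0.49 and the C1 protease C1s1 at 1.63 ± 0.44.

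Of 29 acute phase genes tested in experiment 1, 9 rose, 0 fell and 20 did not pass (median 1.30), and of 21 tested in experiment 2, 5 rose, 1 fell and 15 did not pass (median 0.84). Serpina3n, a protease inhibitor, rose by 2.01 ± 0.44 in experiment 1 and by 3.25 ± 0.54 in experiment 2, and the transcription factor Cebpb rose by 1.67 ± 0.27 and 1.01 ± 0.27. In experiment 1 Nfkbiz, a nuclear partner of NF-kB, rose by 2.14 ± 0.28, Lbp, which carries lipopolysaccharide, by 1.26 ± 0.21, and the siderophore-binding protein Lcn2 by 2.01 ± 0.47. In experiment 2 the C/EBP factor Cebpd rose by 1.89 ± 0.32, the metalloreductase Steap4 by 2.33 ± 0.65 and Stat3, the signal transducer of IL-6, by 0.84 ± 0.24, and the gene that fell was Saa2. Lcn2 in experiment 2 was at 36.1 to 113 CPM in untreated aged and 2.41 to 705 CPM in young ovaries, the 705 CPM being young replicate 3. Il6 itself had 0 counts in both young groups and 9 and 21 counts in the untreated aged groups of experiments 1 and 2.

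**Figure D4:**
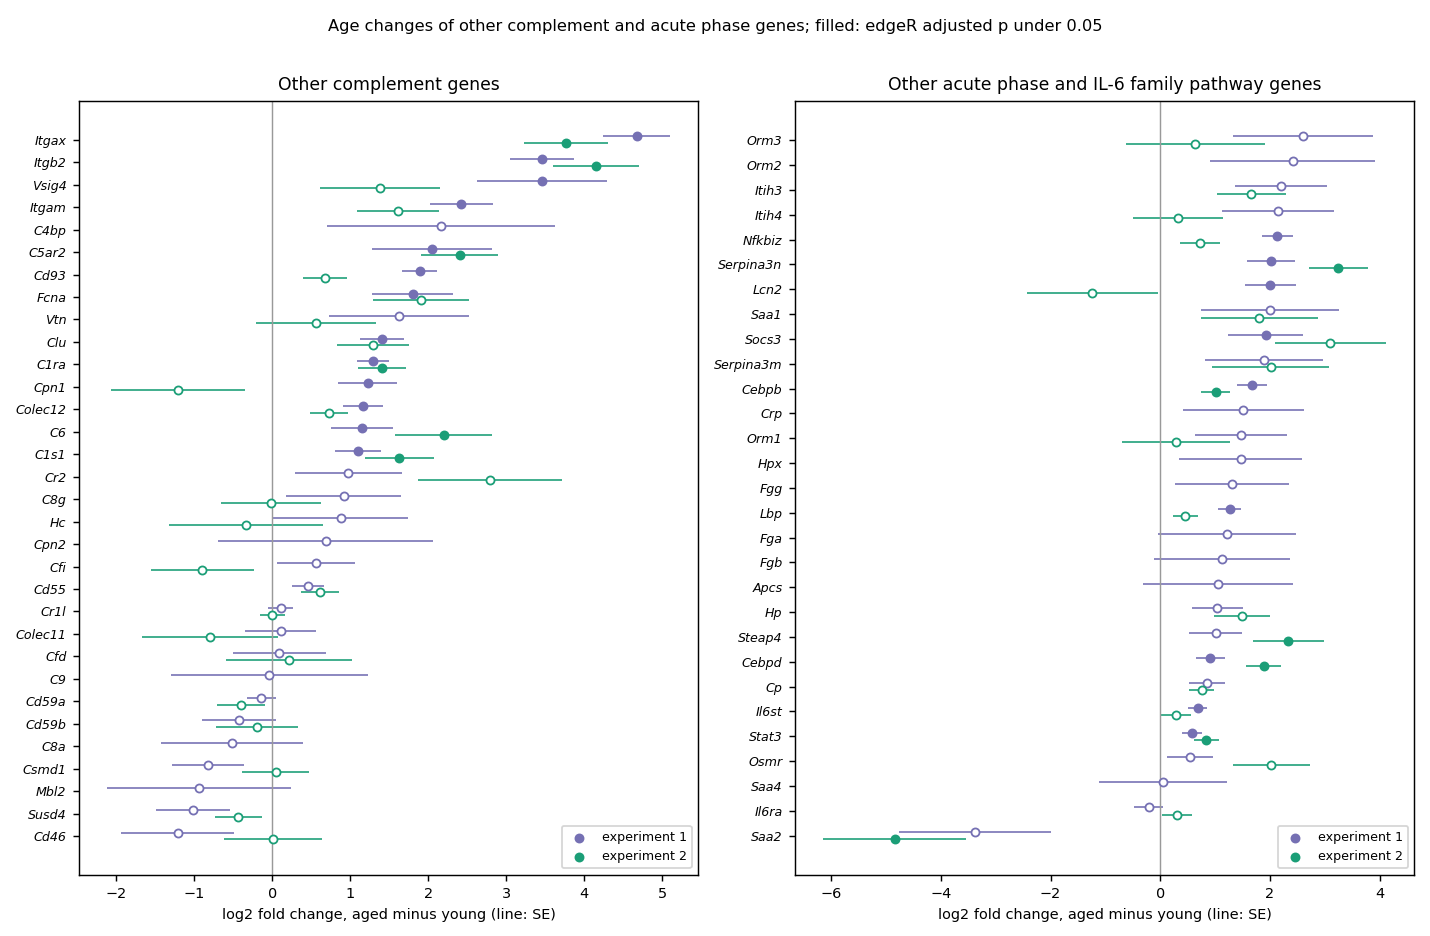
Log2 fold change with age, untreated aged minus young, of other complement genes (left) and other acute phase and IL-6 family pathway genes (right), with lines for SE; purple is experiment 1, green experiment 2, and filled points had an edgeR adjusted p under 0.05. Itgax, Itgb2, C1ra, C1s1, C6 and C5ar2 are filled in both experiments among the complement genes, and Serpina3n, Cebpb, Cebpd and Stat3 among the acute phase genes.

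In aged ovaries neither drug moved a gene of these lists past the threshold with edgeR. Under TRi-1, 0 of 32 complement genes passed (2 higher and 5 lower at an unadjusted p under 0.05, median -0.73, and DESeq2 called 1 and limma-voom 0), and 0 of 29 acute phase genes passed (0 higher and 3 lower at an unadjusted p under 0.05, median -0.70, and DESeq2 and limma-voom called 0). Under auranofin 0 of 28 complement genes passed (1 higher and 1 lower at an unadjusted p under 0.05, median -0.11) and 0 of 21 acute phase genes did (1 higher and 0 lower, median 0.30), and DESeq2 and limma-voom called 0 in both. Against young ovaries 9 of 32 complement and 9 of 29 acute phase genes were higher in TRi-1-treated ovaries, and 7 of 28 and 6 of 21 in auranofin-treated ovaries, with 0 lower in each. The lowest p were those of Itgax (3.91 ± 0.42), Itgb2 (3.03 ± 0.41) and Nfkbiz (1.89 ± 0.28) for TRi-1, and of Cebpd (2.68 ± 0.34), Serpina3n (3.92 ± 0.57), Itgax (3.67 ± 0.55) and Itgb2 (3.65 ± 0.55) for auranofin.

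The pattern of each gene over the 27 libraries was set against 10766 named genes averaging 5 CPM or more, by the root mean square difference of log2 CPM after centring each gene on its own mean. As all libraries share the age groups, this likeness is a description. Among the 9 genes C4b and Cfp were the most alike (0.45), followed by C3 and Cfp (0.49), and C2 and Saa3 were the least (2.58). The nearest gene to Cfp was C1qc, a chain of C1q (0.36), followed by Adgre1, the macrophage antigen F4/80. C3 was nearest to Cyba, a subunit of the phagocyte NADPH oxidase (0.36), with Arhgdib and Vsir next. C4b was nearest to Maff (0.40), C3ar1 to Gpr137b (0.37), Serping1 to the lysosomal protease Ctsc (0.44) and C2 to Gpm6a (0.29). Cfb had Tmem173 (0.59) and then C3 (0.59) as its nearest genes, and C5ar1 had Cd44 (0.55), an adhesion receptor of leukocytes. The closest gene to Saa3, the interleukin 1 receptor antagonist Il1rn, differed by 1.15, followed by F10 and the neutrophil chemokine Cxcl2 with 1.21 and 1.22. The spread of Saa3 itself around its mean was 2.51, the widest of the 9, and that of C2 was 0.64. Such a difference grows with the spread of the gene, so its size cannot be compared between genes of unlike spread.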

How the data were processed

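Polyadenylated RNA of 27 mouse ovaries was extracted with an RNeasy kit and DNase I and, per the labels' protocols, made into 3′ tag libraries with Lexogen's QuantSeq method. The authors deposited whole-number counts per gene ID in 1 table with 27 columns, all matched to labels, and 0 columns of other samples. The submitters' processing notes list mm10 as the build and RSEM 1.2.3 and DESeq2 as tools, without roles. The annotation and strand of counting are not given in the sources used here. Symbols and coordinates came from GENCODE M21 (51596 of 51789 IDs matched), and promoters from RefSeq. Library totals were 9183605 to 10784379 counts in TRi-1-treated, 9791693 to 14814381 in untreated aged and 6460903 to 10077161 in young ovaries of experiment 1, and 9895231 to 14479170 in auranofin-treated, 10139429 to 14027986 in untreated aged and 6782228 to 9799253 in young ovaries of experiment 2. Over 48 pairs within groups, 0 were identical, and the lowest chi-square per gene was 20.5.

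Tests on the counts were edgeR (4.0.16, R 4.3.3) quasi-likelihood F tests after filterByExpr and TMM scaling, with a mean for each group and a Benjamini-Hochberg threshold of 0.05. Each experiment was fitted on its own with its 3 groups together, and the difference between 2 effects was tested in a fit over all 27 libraries. An adjusted p printed with no tool beside it comes from edgeR. The standard error was obtained by dividing the log2 fold change by the square root of F, and intervals use the t quantile of the fit. CPM are scaled by TMM over all libraries, and log2 CPM use a prior count of 2. The tests were checked on simulated counts with 200 changed genes. The 9 genes, the gene lists and the markers were chosen with earlier results of these data known. 1 further complement gene is not reported here. Of the lists, the text names up to 5 called genes of lowest p per comparison and direction, genes near-identical to a member, and the 3 genes most like each member. Saa1, Il6, and Lcn2 in experiment 2 fall outside this rule and were picked with their values in view, and not all genes the rule names are printed. The alternatives tried were DESeq2 1.42.0, RLE size factors, limma-voom (limma 3.58.1) with quality weights, no filter or a filter at a mean of 5 CPM, fits of only the groups compared or of all 27 libraries, a block for replicate number, no haemoglobin genes, and each library left out in turn. Leaving out 3 libraries of experiment 2 that stood apart, or the 3 of experiment 1 highest in hepatocyte markers, was chosen after seeing the data. Young replicate 2 of experiment 2 was kept, although its mean correlation with its group, 0.835, was below that of auranofin replicate 3, 0.838. Plots used matplotlib 3.10.9.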

Additional observations from a re-analysis of the deposited data

Results flagged for a closer look

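Cfb in young replicate 3 of experiment 2 was the highest of its group by a wide gap: it stood at 342 CPM, against 57.8 CPM in the next highest young ovary, a gap of 0.912 of the group's range. The same library had 705 CPM of Lcn2, 114.75 CPM of Itgam and a summed neutrophil marker level of 418 CPM, each the highest of its group, and its C3, 2203 CPM, was also the highest of its group. Its Saa3, 13.7 CPM, was among the lowest. Of 54 sets of 1 gene in 1 group, 1 had a library apart in this way, where chance gives about 1 in 20. Which part other cell types had in this library was not tested.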

How the results depend on the processing

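Under 38 alternative settings no called change of a single gene turned its direction, and the median of all genes shifted by at most 0.0981 on the log2 scale. Of 1935 values of single genes 62 had another sign than the reported one, none of them called in either fit. Of 215 counts of called members 212 stayed within 1.5 times the reported one. The 3 others concern TRi-1 in aged ovaries, where 0 members were called: DESeq2 called 2, edgeR with no filter called 1, and leaving out single libraries called 0 to 1. With single libraries left out the count of members for age was 7 to 8 in experiment 1 and 6 to 7 in experiment 2. Of 1935 values of single genes, 16 lost and 17 gained a call, all of them of Serping1, Cfb, Saa3 or C3. Serping1 in TRi-1-treated against young ovaries lost its call in the fit of all libraries (adjusted p = 0.152) and without the 3 libraries highest in hepatocyte markers (adjusted p = 0.192), and for age in experiment 2 it gained one in the fit of all libraries (adjusted p = 0.0273). The cause was not tested.

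Counts of called list genes moved by over 1.5 times in 23 of 430 cases. For age in experiment 2, complement genes numbered 12 with limma-voom, 12 in the fit of all libraries and 10 without the 3 libraries that stood apart (6 reported), and acute phase genes 10 with DESeq2, 10 without those libraries and 3 to 10 with single libraries left out (6 reported). For auranofin-treated against young ovaries, complement genes numbered 4 with the filter at a mean of 5 CPM and 3 with only the groups compared (7 reported), and acute phase genes 12 with DESeq2, 11 with limma-voom, 10 in the fit of all libraries and 4 to 11 with single libraries left out (6 reported). For TRi-1-treated against young ovaries, acute phase genes numbered 5 in the fit of all libraries, 3 with the replicate block, 3 without the libraries highest in hepatocyte markers and 3 to 10 with single libraries left out (9 reported). DESeq2 called 1 complement gene under TRi-1 and 1 acute phase gene for the difference between drugs, against 0 with edgeR in each.

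What the replicate numbers mark is not given. Deviations of same-numbered libraries correlated between -0.246 and 0.433, over 0.1 in 6 of 25 pairs, all of them in experiment 2. These values cannot settle whether the numbers pair the mice. With the replicate block 7 members were called for age in each experiment, 0 under either drug and 6 against young ovaries for each. The 4 or 5 mice per group limit what could be detected, and a gene that missed the threshold is not shown to be unaltered.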

Other observations

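The terminal complement gene C6, a component of the membrane attack complex, rose with age in both experiments and was named above only in a figure caption. It averaged 6.46 ± 2.83 CPM in untreated aged (n = 4) and 2.94 ± 0.569 CPM in young ovaries (SD, n = 5) of experiment 1, a log2 fold change of 1.15 ± 0.40 (adjusted p = 0.0361), and 4.37 ± 0.97 CPM in untreated aged and 0.947 ± 0.693 CPM in young ovaries (SD, n = 5 each) of experiment 2, a change of 2.20 ± 0.62 (adjusted p = 0.0325). Cfd, the factor D protease of the alternative route that fat cells secrete, did not pass (0.09 ± 0.60 in experiment 1 and 0.21 ± 0.81 in experiment 2), and its level followed a wide range of 195 to 1558.5 CPM in untreated aged and 65.5 to 2022 CPM in young ovaries of experiment 2. Both genes were chosen after their values were seen.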
